A study of Homo sapiens with 4 samples.

Results

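The genes described are 10 members of the Hippo pathway, found by their gene symbols after earlier results of these data were known: CYR61, CTGF, ANKRD1, AMOTL2, AMOTL1, LATS2, YAP1, WWTR1, TEAD1 and AJUBA, out of 58735 genes listed for each library. All 10 were found under these symbols, and all 10 were among the 12949 genes with a mean FPKM (fragments per kilobase of gene length, scaled to library size) of at least 1 over the 4 libraries. RNA of the glioblastoma (GBM) cell lines U251 and U87 was sequenced without and with brusatol (Bru), a natural compound from Brucea plants, to find which transcripts differ after the drug. The libraries were U251 Control, U251 Bru, U87 Control and U87 Bru. Both are established lines grown in culture, the Control group received no Bru, and the Bru group was treated for 48 h at the concentration that inhibits cell viability by 50% (IC50). The concentration used for sequencing is not given for each line. In the study's viability time course it was higher for U251 than for U87, so line and dose may be confounded. With 1 library per condition there is no replicate check, so no p-value is given and every comparison is between libraries.

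The Hippo pathway is a kinase cascade in which MST kinases activate the LATS kinases, and LATS in turn phosphorylates the coactivators YAP and TAZ so that they are kept out of the nucleus or degraded. When the kinases are quiet, YAP and TAZ enter the nucleus and bind the TEAD transcription factors, which raises the transcription of genes such as CTGF, CYR61 and ANKRD1. Some of the genes switched on in this way, LATS2 and AMOTL2 among them, encode proteins that hold YAP and TAZ back. The pathway responds to cell density, the cytoskeleton and the stiffness of the matrix, and YAP and TAZ are known for their part in the growth and invasion of glioma cells. Transcript levels do not show where YAP and TAZ proteins are in the cell, nor how far they are phosphorylated.

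Between 17083896 and 21453561 reads per library lay on genes, as recovered from the FPKM values. In these bulk samples, fewer cells of a type and less RNA per cell cannot be told apart. Among the markers of the lines, VIM lay between 606 and 701 FPKM and CD44 between 94.5 and 125 in the 4 libraries. The stem cell factor SOX2 stood at 129 and 91.2 FPKM in U251 Control and Bru, and had 0 and 2 reads in U87 Control and Bru. NES, which encodes nestin, was at 125 and 50.6 FPKM in U251 and at 1.46 and 0.569 in U87. The astrocyte genes GFAP and S100B reached at most 2.42 and 0.296 FPKM, so the defining astrocyte markers were low or at 0 in both lines. OLIG2, also among the markers, went the other way from SOX2 and NES and was higher in U87. It stood at 0.0284 and 0.0644 FPKM in U251 Control and Bru (2 and 4 reads). In U87 Control and Bru it stood at 0.627 and 1.05 FPKM (38 and 61 reads). Of the markers of other cell types, 0 of 3 immune, 0 of 2 endothelial and 0 of 2 epithelial genes reached an FPKM of 1 in any library, and their summed levels were at most 0.670, 0.508 and 0.330 FPKM. Of 2 neuronal genes, SYT1 lay between 1.73 and 6.02 FPKM and RBFOX3 at or below 0.0386.

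To show the letters in which TEAD factors are known to bind, the stretch of up to 250 bases upstream of the RefSeq transcript start (assembly GRCh38.p14) was searched for GGAATG on both strands (CATTCC on the other). A window was found for 8 of the 10 genes, with 11 starts in all, and none was found for CYR61 and TEAD1. Of all 35116 windows of this length, 11.9% held the motif at least 1 time, 0.940% at least 2 times and 0.0826% at least 3 times. It was present in 5 of the 11 windows, which belong to 5 genes, although the matches of AMOTL2 and AJUBA and 1 of those of ANKRD1 lie in bases annotated as untranslated in GENCODE 29. CTGF held it 3 times, starting 169, 104 and 95 bases upstream of the start. ANKRD1 held it 2 times, at 220 and 128 bases, and also held the AP-1 motif TGANTCA, which 6.57% of all windows have and which reads the same on both strands, at 195 bases. YAP1 held it once at 162 bases, 1 of the AMOTL2 windows at 69 bases and 1 of the AJUBA windows at 59 bases, while the windows of WWTR1, LATS2 and AMOTL1 did not hold these letters. A match describes letters only and is not a measured binding site. The sequences below are shown because CTGF and WWTR1 were the 2 genes whose Bru library was more than 2-fold below Control in U251, ANKRD1 was the 1 gene more than 2-fold above in U87, and YAP1 was nearly level in both lines. They run 5′ to 3′ on the strand of the gene, without any annotated untranslated bases, and capitals mark GGAATG.
CTGF, chr6:131951374-131951622, minus strand: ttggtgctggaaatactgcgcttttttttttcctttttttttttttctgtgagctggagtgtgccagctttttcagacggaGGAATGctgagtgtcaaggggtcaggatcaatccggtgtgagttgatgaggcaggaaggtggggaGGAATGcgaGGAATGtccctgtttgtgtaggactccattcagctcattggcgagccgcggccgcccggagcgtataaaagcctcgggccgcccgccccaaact
ANKRD1, chr10:90921277-90921337, minus strand: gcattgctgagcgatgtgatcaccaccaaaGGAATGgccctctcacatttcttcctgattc
YAP1, chr11:102110197-102110446, plus strand: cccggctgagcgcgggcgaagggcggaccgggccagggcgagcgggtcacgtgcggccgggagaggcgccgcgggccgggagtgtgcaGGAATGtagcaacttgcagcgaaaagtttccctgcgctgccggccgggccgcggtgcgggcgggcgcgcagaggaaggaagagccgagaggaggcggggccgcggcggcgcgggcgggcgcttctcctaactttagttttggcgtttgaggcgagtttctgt
WWTR1, chr3:149703274-149703523, minus strand: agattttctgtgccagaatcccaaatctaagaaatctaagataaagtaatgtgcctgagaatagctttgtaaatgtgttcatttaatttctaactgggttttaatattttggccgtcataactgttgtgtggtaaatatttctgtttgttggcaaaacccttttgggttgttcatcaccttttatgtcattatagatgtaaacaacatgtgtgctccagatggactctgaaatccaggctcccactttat
For ANKRD1, only the outer 61 bases of its window are shown, which hold the first of its 2 matches. For WWTR1, the window shown is that of the start at 149703273, and the window of its other start, at 149658025, is not shown.

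The level of the 10 genes per unit of length spanned a wide range, and the matricellular genes CYR61 and CTGF were the highest in every library. In U251 Control, CYR61 ranked 32 and CTGF 39 among all genes of that library, and in U87 Control they ranked 606 and 1341. The order in U251 Control was CYR61, CTGF, WWTR1, TEAD1, YAP1, AMOTL2, ANKRD1, AMOTL1, LATS2 and AJUBA. In that order, WWTR1 and TEAD1 did not differ beyond counting error, and neither did TEAD1 and YAP1. In U251 Bru, WWTR1 stood 7th behind ANKRD1, from which it did not differ beyond counting error, and AJUBA stood above AMOTL1 and LATS2. In U87 Control, ANKRD1 was the lowest, and the neighbours AMOTL2 and YAP1, and AJUBA and LATS2, did not differ beyond counting error. In U87 Bru, the same was true of YAP1 and TEAD1.

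**Figure D1:**
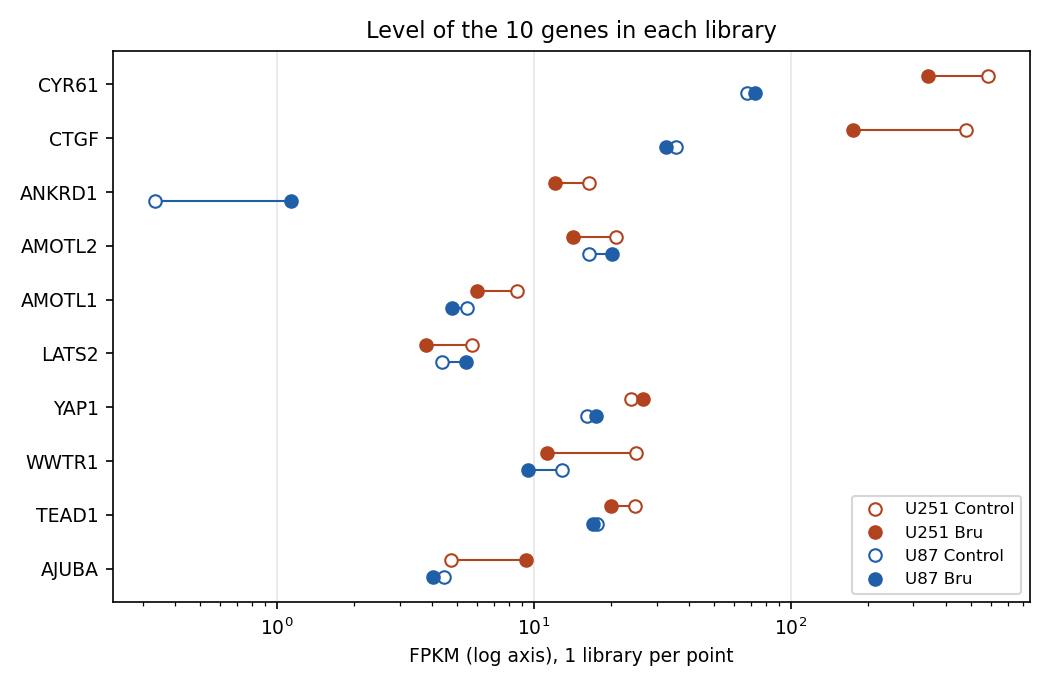
FPKM of the 10 genes on a log axis, with open points for the Control and filled points for the Bru library of U251 (red) and U87 (blue), 1 library per point. CYR61 and CTGF lie far to the right in U251, from 175 to 585 FPKM, and ANKRD1 in U87 lies at 0.336 and 1.13 FPKM.

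In U251, most of these genes were lower in the Bru library, and the transcripts of the target CTGF and of the coactivator TAZ (WWTR1) were lower by more than 2-fold. The log2 ratio between the Bru and Control libraries, computed on FPKM + 0.1, was below 0 for 8 of the 10 genes, against 52.1% of all 12949 genes, and its median was -0.53 against -0.03 over all genes. It was below -1 for 2 of the 10 genes, against 5.44% of all genes, and above 1 for 0 of the 10, against 3.36%. In U87, the median was 0.02 against -0.04 over all genes, and 5 of 10 genes were below 0 against 56.7% of all. None of the 10 was below -1 in U87, where 1.41% of all genes were, and 1 of 10 (ANKRD1) was above 1, where 1.92% were. The spread over all genes was also narrower in U87, with quartiles at -0.20 and 0.12 against -0.38 and 0.30 in U251. Intervals given below are 95% exact Clopper-Pearson intervals of the ratio without a pseudocount. They cover counting error only. In U87 they lay across 0 for TEAD1 and AJUBA. Genes with more reads have narrower intervals, and the share of all genes with an interval away from 0 in a single line is not given here. An interval away from 0 therefore does not set a member apart. For 4 of the 10 genes (CYR61, ANKRD1, AMOTL2 and LATS2) the interval was below 0 in U251 and above 0 in U87, as it was for 1.95% of all genes. That share was not matched for read number. Rescaling the libraries to the 75th percentile of expressed genes moved the median of all genes in U87 from -0.04 to 0.10, so small differences in that line depend on the scaling. The same scaling moved the number of the 10 genes beyond 2-fold in U251 from 2 to 3, with AJUBA at 1.001.

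**Figure D2:**
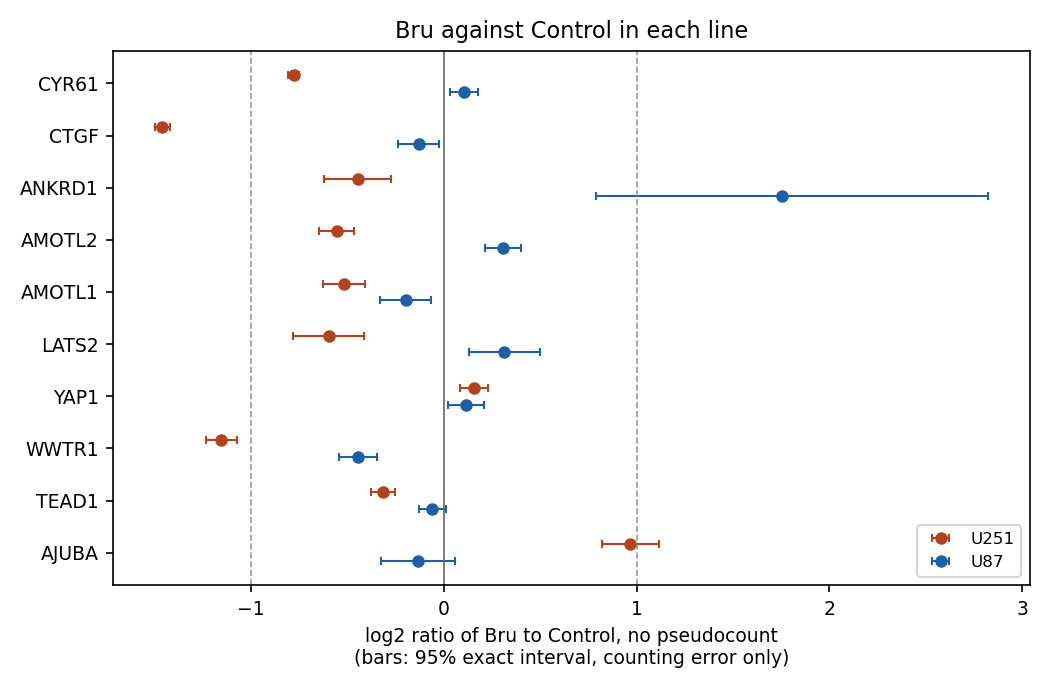
Log2 ratio of Bru to Control without a pseudocount for the 10 genes in U251 (red) and U87 (blue), with 95% exact intervals for counting error and dashed lines at a 2-fold difference. In U251, 8 of the 10 points lie left of 0, whereas in U87 CYR61, ANKRD1, AMOTL2, LATS2 and YAP1 lie to its right.

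CTGF encodes a secreted matricellular protein that is a widely used readout of YAP and TAZ. Its level was 480 FPKM in the Control and 175 in the Bru library of U251, and 35.6 and 32.5 in those of U87, so both U251 libraries stood well above both U87 libraries. In U251 the log2 ratio was -1.46 (interval -1.50 to -1.42), and 2.07% of all genes had a log2 ratio at or below its own. In U87 the ratio was -0.13 (-0.24 to -0.02), and it turned to 0.022 when the libraries were scaled to the 75th percentile. CTGF (ENSG00000118523) lies on chromosome 6 at 131948176 to 131951373 of GRCh38, minus strand, and 4.41% of its 50-base stretches also occur in AL133346.1, an antisense gene that had at most 3 reads in a library.

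CYR61, now also called CCN1, encodes a related matricellular protein and lies on chromosome 1 at 85580761 to 85583962, plus strand (ENSG00000142871). It stood at 585 FPKM in the Control and 341 in the Bru library of U251, and 67.6 and 72.8 in those of U87. As with CTGF, the U251 Bru library lay between U251 Control and the U87 libraries. Between Bru and Control its log2 ratio was -0.78 (-0.81 to -0.75) for U251 and 0.11 (0.03 to 0.18) for U87. CYR61 shared no 50-base stretch with another gene.

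ANKRD1 encodes a nuclear ankyrin repeat protein, known from muscle, whose gene is a direct target of YAP (ENSG00000148677, chromosome 10 at 90912096 to 90921276, minus strand). It stood at 16.4 FPKM in the Control and 12.1 in the Bru library of U251, and 0.336 and 1.13 in those of U87. The values in U87 rest on 12 and 39 reads, against 682 and 442 in U251, and the gene reached the mean FPKM of 1 through its U251 libraries. The log2 ratio was -0.44 (-0.62 to -0.27) in U251. In U87 it was 1.50 on FPKM + 0.1 and 1.75 without the pseudocount (0.79 to 2.82), and 0.67 on FPKM + 1, below the 2-fold line.

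AMOTL2 and LATS2 are targets of YAP and TAZ whose products restrain them. AMOTL2 encodes an angiomotin-like scaffold of cell junctions that binds YAP (ENSG00000114019, chromosome 3 at 134355874 to 134375479, minus strand). Its level was 20.8 FPKM in the Control and 14.2 in the Bru library of U251, and 16.3 and 20.2 in those of U87. Bru was thus the lower of the 2 libraries in U251 and the higher in U87, with log2 ratios of -0.55 (-0.65 to -0.46) and 0.31 (0.22 to 0.40). LATS2 encodes one of the kinases that phosphorylate YAP and TAZ (ENSG00000150457, chromosome 13 at 20973032 to 21061547, minus strand). It stood at 5.74 FPKM in the Control and 3.79 in the Bru library of U251, and 4.38 and 5.44 in those of U87. Its log2 ratios were -0.58 (-0.78 to -0.42) in U251 and 0.31 (0.13 to 0.50) in U87, so it had the same directions as AMOTL2 in both lines.

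AMOTL1, a second angiomotin-like gene (ENSG00000166025, chromosome 11 at 94706431 to 94876753, plus strand), did not share the opposite directions of AMOTL2. It stood at 8.57 FPKM in the Control and 5.99 in the Bru library of U251, and 5.50 and 4.79 in those of U87. Bru was the lower library in both lines, by a log2 ratio of -0.51 (-0.63 to -0.41) in U251 and of -0.19 (-0.33 to -0.06) in U87. With scaling to the 75th percentile the ratio in U87 was only -0.045, so its direction there depends on the scaling. Per unit of length, AMOTL2 stood at 2.43 (95% exact interval 2.29 to 2.58) and 2.36 (2.19 to 2.55) times AMOTL1 in U251 Control and Bru, and at 2.97 (2.75 to 3.21) and 4.22 (3.89 to 4.57) times in U87 Control and Bru. These ratios within a library, and those given further on, were chosen after the values were seen.

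The 2 coactivators differed. YAP1 encodes YAP (ENSG00000137693, chromosome 11 at 102110461 to 102233423, plus strand) and was slightly higher in Bru in both lines. Its level was 23.8 FPKM in the Control and 26.5 in the Bru library of U251, and 16.1 and 17.5 in those of U87, with log2 ratios of 0.16 (0.09 to 0.23) and 0.12 (0.02 to 0.21). WWTR1 encodes TAZ (ENSG00000018408, chromosome 3 at 149517235 to 149736714, minus strand). It stood at 25.0 FPKM in the Control and 11.2 in the Bru library of U251, and 12.9 and 9.44 in those of U87, and the Bru library was the lower one in both lines. The log2 ratio was -1.15 (-1.23 to -1.07) in U251, where 3.83% of all genes were at or below it, and -0.44 (-0.55 to -0.35) in U87, where 8.19% were.

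Within a library, where scaling plays no part, WWTR1 stood at 1.05 (1.003 to 1.10) times YAP1 in U251 Control and at 0.423 (0.399 to 0.449) times in U251 Bru. In U87 it stood at 0.797 (0.748 to 0.850) times YAP1 in Control and 0.540 (0.504 to 0.579) times in Bru. The 2 transcripts together summed to 48.8 FPKM in U251 Control and 37.8 in U251 Bru, and to 28.99 and 26.9 in U87 Control and Bru. For the targets, CTGF stood at 0.821 (0.807 to 0.835) times CYR61 in U251 Control and 0.512 (0.498 to 0.526) times in U251 Bru, and at 0.527 (0.495 to 0.561) and 0.447 (0.419 to 0.477) times in U87 Control and Bru. Both ratios were thus lower in the Bru library of both lines. Of the 50-base stretches of WWTR1, 8.24% also occur in WWTR1-AS1, an antisense gene with at most 29 reads in a library, and 8.98% occur in WWTR1-AS1 or any of CEBPZOS, MTSS1, TEP1 and THRAP3. The most read of these other genes reached 7088 reads in a library, against 4410 for WWTR1 in U251 Control. Of the 50-base stretches of YAP1, 8.29% occur in AP000942.2, which had 0 reads, and 8.74% in it or in YAP1P1, which had at most 2. The share found in any other gene was 4.46% for AMOTL1 and 2.22% for AMOTL2. Besides these antisense genes and AL133346.1, the genes that overlap a member in coordinates were RPL39P5 and MIR6827 (AMOTL2), AP000943.3 and AP002383.2 (AMOTL1), RNU4-9P and LATS2-AS1 (LATS2), WWTR1-IT1 and RNU6-1098P (WWTR1), AC013549.1, AC013549.2, AC013549.3 and RF00424 (TEAD1) and AL132780.3 (AJUBA), each with at most 11 reads in a library. Since the strand setting of the counting is not known here, reads of a gene and of its antisense partner could not be told apart.

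**Figure D3:**
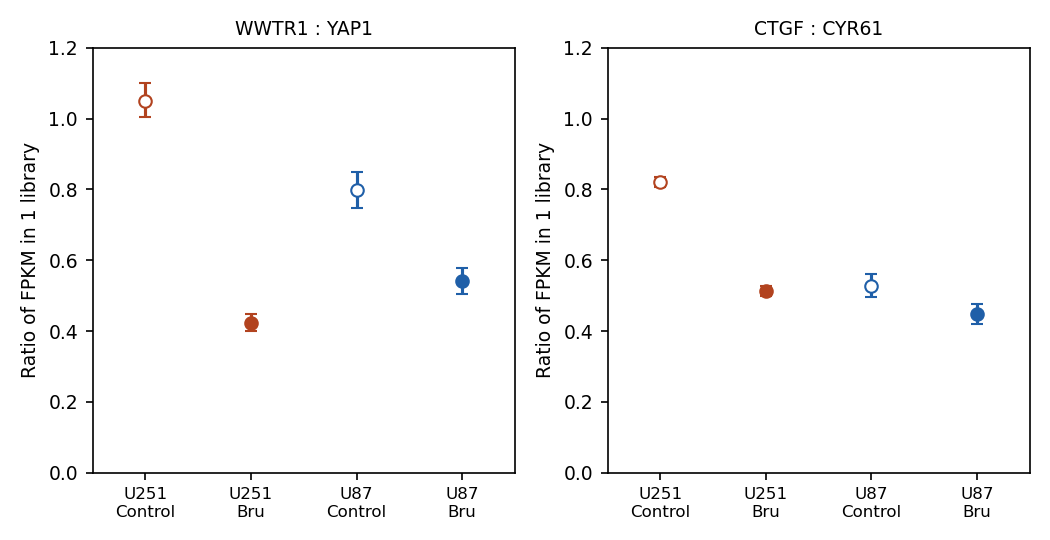
Ratio of FPKM between 2 genes of the same library, WWTR1 to YAP1 on the left and CTGF to CYR61 on the right, with 95% exact intervals for counting error, open points for Control and filled points for Bru. WWTR1 to YAP1 was 1.05 and 0.423 in U251 Control and Bru, and 0.797 and 0.540 in U87 Control and Bru.

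TEAD1 encodes a transcription factor through which YAP and TAZ reach DNA (ENSG00000187079, chromosome 11 at 12674591 to 12944483, plus strand). It stood at 24.7 FPKM in the Control and 19.9 in the Bru library of U251, and 17.6 and 16.9 in those of U87. The log2 ratio was -0.31 (-0.38 to -0.25) in U251. In U87 it was -0.06, with an interval that includes 0 (-0.13 to 0.01), and it became 0.09 with scaling to the 75th percentile.

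AJUBA encodes a LIM-domain protein that binds LATS kinases and keeps them from acting on YAP (ENSG00000129474, chromosome 14 at 22971174 to 22982642, minus strand). It stood at 4.77 FPKM in the Control and 9.32 in the Bru library of U251, and 4.45 and 4.05 in those of U87, so the U251 Bru library was above the other 3. The log2 ratio was 0.95 in U251 (0.82 to 1.11), a value that 96.2% of all genes were at or below, and it was 1.001 when scaled to the 75th percentile and 1.04 when scaled to the total of the recovered reads, a scaling added after the data were seen. In U87 it was -0.13, with an interval that includes 0 (-0.33 to 0.06), and 0.017 with scaling to the 75th percentile. AJUBA stood at 0.831 (0.743 to 0.930) times LATS2 in U251 Control and 2.46 (2.19 to 2.77) times in U251 Bru, and at 1.02 (0.892 to 1.16) and 0.746 (0.655 to 0.849) times in U87 Control and Bru.

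**Figure D4:**
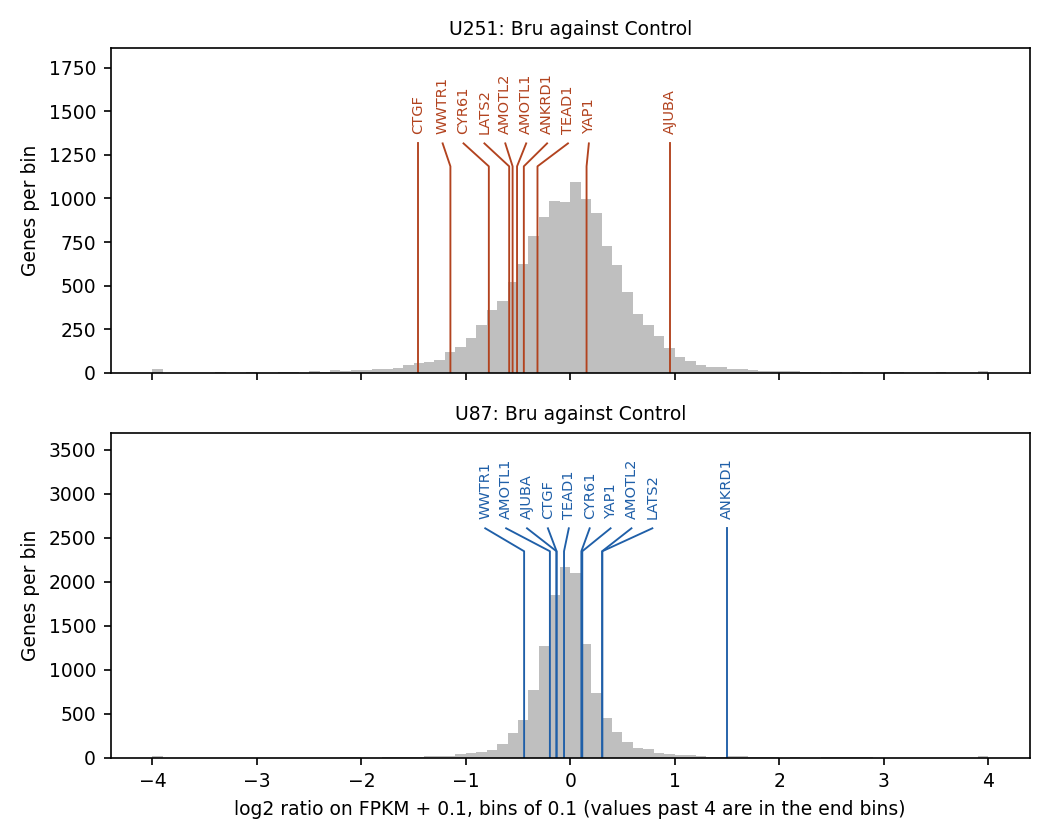
Number of genes per bin of the log2 ratio between Bru and Control (FPKM + 0.1) (grey, 12949 genes) in U251 and U87, with a line at each of the 10 genes. The members' median is -0.53 in U251 and 0.02 in U87, against -0.03 and -0.04 over all genes.

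The difference between the lines was given its own interval, the exact conditional interval of the ratio of the 4 read numbers. On FPKM + 0.1, the log2 ratio was higher in U87 than in U251 by a median of 0.78 over the 10 genes, against -0.01 over all genes. The interval lay across 0 for YAP1, whose difference was -0.04 (-0.16 to 0.08), or 0.061 with scaling to the 75th percentile. It lay below 0 for AJUBA and above 0 for the other genes. The share of all genes with such an interval away from 0 is not given here, so this does not set the 10 genes apart. On FPKM + 0.1 the difference was above 1 for 2 of 10 genes, against 5.11% of all genes, and below -1 for 1 of 10, against 3.37%. The values that follow are without the pseudocount, as are their intervals. The 2 genes above 1 were CTGF at 1.33 (1.22 to 1.44) and ANKRD1 at 2.20 (1.22 to 3.29), and AJUBA was the gene below -1, at -1.10 (-1.34 to -0.86). LATS2, CYR61 and AMOTL2 differed by 0.91 (0.65 to 1.17), 0.89 (0.81 to 0.96) and 0.86 (0.73 to 0.99), and WWTR1 by 0.71 (0.58 to 0.84). AMOTL1 and TEAD1 differed least among those above 0, by 0.32 (0.14 to 0.49) and 0.26 (0.16 to 0.35).

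The lines also started at different levels. All 10 genes were lower in U87 Control than in U251 Control, where 50.4% of all genes were, and the median log2 ratio of U87 to U251 was -0.59 against -0.01 over all genes. It was below -1 for 3 of 10 genes, against 16% of all genes, and above 1 for 0 of 10, against 14.5%. The 3 were the targets ANKRD1, CTGF and CYR61, with log2 ratios of -5.25, -3.75 and -3.11, which in FPKM were 49.0-fold, 13.5-fold and 8.66-fold higher levels in U251. For ANKRD1 the ratio without the pseudocount was -5.61 (-6.57 to -4.80), resting on 12 reads in U87 Control. ANKRD1 reached the mean FPKM of 1 through its U251 libraries, where it was high. The other 7 were closer: WWTR1 at -0.95, AMOTL1 at -0.63, YAP1 at -0.56, TEAD1 at -0.49, LATS2 at -0.38, AMOTL2 at -0.35 and AJUBA at -0.10, with AJUBA's interval including 0 (-0.28 to 0.08). On TPM, a rescaling of FPKM, WWTR1 was at -1.02 and so beyond 2-fold. Relative to YAP1, CTGF stood at 20.2 and 6.58 times its level in U251 Control and Bru, and at 2.21 and 1.86 times in U87. CYR61 stood at 24.6 and 12.9 times in U251 and at 4.19 and 4.16 times in U87. ANKRD1 stood at 0.691 and 0.454 times in U251 and at 0.0208 and 0.0648 times in U87. The target AMOTL2 went the other way, at 0.874 and 0.534 times in U251 and at 1.01 and 1.16 times in U87. These starting ratios share their Control libraries with the ratios of Bru to Control, so no relation between them was computed.

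Of the other 48 genes listed for the pathway, 44 had a mean FPKM of at least 1. For Bru against Control in U251, 1 of the 44 was below -1 and 0 were above 1, where 5.44% and 3.36% of all genes were. In U87, 0 were below -1 and 0 above 1, where 1.41% and 1.92% of all genes were. Between the Control libraries, 12 of the 44 were below -1 and 6 above 1 in U87 relative to U251, against 16% and 14.5% of all genes. Among the 12, FOXF2, NUAK2, ARHGEF17, AMOT and VGLL2 reached the mean FPKM of 1 only through U251, where they were high. Among the 6, IGFBP3 reached it through U87. Over the 44 genes the median log2 ratio was -0.06 for U251 and -0.02 for U87.

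Of 17 other targets of YAP and TAZ, 16 had a mean FPKM of at least 1. In U251, 10 of the 16 were below 0, against 52.1% of all genes, with a median of -0.16. In U87, FOXF2 had no reads, and 8 of the remaining 15 were below 0, against 56.7% of all genes, with a median of -0.02. By the mean absolute log2 ratio over both lines, NT5E and F3 were the 2 largest. F3, which encodes tissue factor, stood at 9.67 FPKM in the Control and 10.4 in the Bru library of U251, and 1.58 and 2.84 in those of U87, with log2 ratios of 0.11 and 0.81. NT5E, which encodes the ecto-5′-nucleotidase CD73, stood at 6.82, 4.11, 183 and 118 FPKM in the same order, with log2 ratios of -0.72 and -0.63. Unlike CTGF, CYR61 and ANKRD1, NT5E was higher in U87 Control than in U251 Control, by a log2 ratio of 4.73. Of the 16 genes, 8 were more than 2-fold lower in U87 Control than in U251 Control, against 16% of all genes. Another 3 were more than 2-fold higher, against 14.5%. Among the 8, FOXF2 (0 reads in U87), NUAK2 and ARHGEF17 reached the mean FPKM of 1 through their U251 libraries. Among the 3, IGFBP3 reached it through its U87 libraries. For these genes the filter favoured the direction seen, so the counts do not set the targets apart.

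All 10 other core kinases and adaptors were tested, with medians of 0.10 in U251 and -0.06 in U87. LATS1, the sister kinase of LATS2, stood at 4.19 FPKM in the Control and 6.21 in the Bru library of U251, and 3.62 and 4.12 in those of U87. Its log2 ratio in U251 was 0.56, where that of LATS2 was -0.58, and it was 0.18 in U87. MAP4K4, a kinase that acts alongside MST on LATS, stood at 31.3, 21.0, 28.2 and 25.1 FPKM in the same order, with log2 ratios of -0.57 and -0.17.

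Of 14 upstream regulators, 12 were tested, with medians of 0.11 and -0.02. FRMD6, a FERM-domain protein, stood at 6.20 FPKM in the Control and 9.39 in the Bru library of U251, and 6.71 and 9.41 in those of U87, with log2 ratios of 0.59 and 0.48. FAT4, an atypical cadherin, stood at 1.22, 1.996, 0.653 and 0.647 FPKM in the same order, with log2 ratios of 0.67 and -0.01.

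Of 7 other TEAD and TEAD cofactor genes, 6 were tested. Of these, 5 were below 0 in U251 and 5 in U87, where 52.1% and 56.7% of all genes were, with medians of -0.50 and -0.13. VGLL2, a vestigial-like cofactor of TEAD, was the 1 gene of the 4 lists beyond 2-fold, and it reached the mean FPKM of 1 through U251 Control, the library in which it was high. It stood at 4.34 FPKM in the Control and 0.629 in the Bru library of U251, and 0.471 and 0.412 in those of U87, from 203, 26, 19 and 16 reads. Its log2 ratio in U251 was -2.61, and that in U87 was -0.16, where the interval ran from -1.25 to 0.84.

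**Figure D5:**
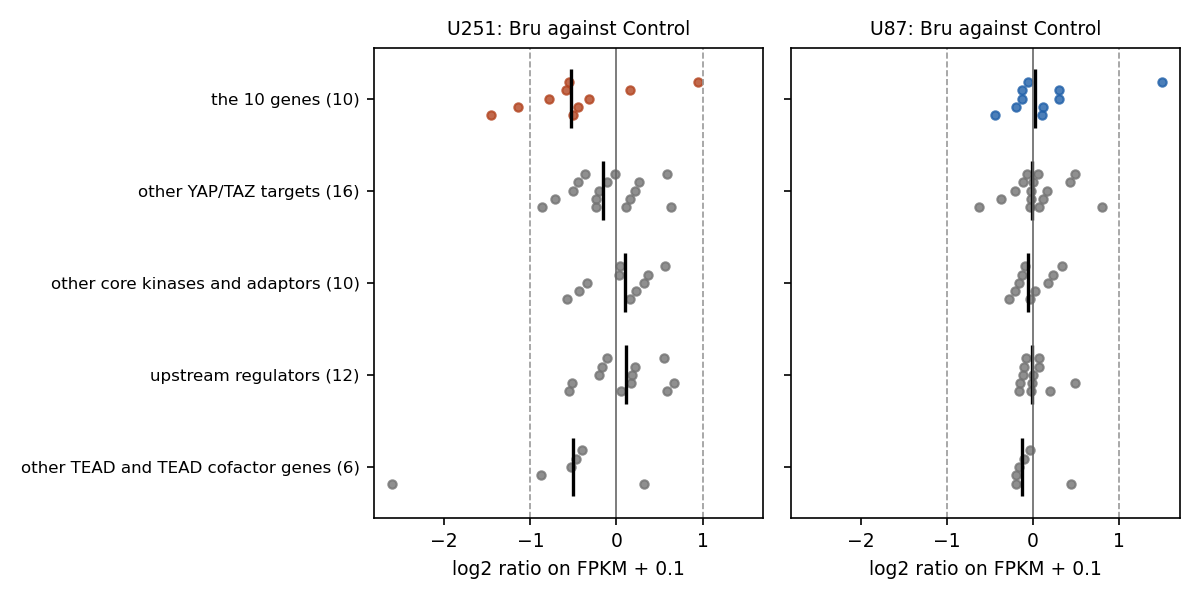
Log2 ratio between Bru and Control (FPKM + 0.1) for the 10 genes and for the tested genes of 4 other pathway lists in U251 and U87, with black bars at the medians and dashed lines at a 2-fold difference. VGLL2 lies at -2.61 in U251, and no gene of the 4 lists lies beyond 2-fold in U87.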

How the data were processed

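The deposited values are FPKM per gene in the 4 libraries, beside each gene's length and coordinates. Libraries were made with a NEB kit from Trizol RNA and read as paired ends. The submitters' processing notes name HISAT2 2.0.5, StringTie 1.3.3b, featureCounts 1.5.0-p3 and DESeq2 1.16.1, and the build hg18. The coordinates and strand of all 58735 genes are those of GENCODE 29 (GRCh38), which is used here. Whether counting used strand is not given in the sources used here.

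FPKM times length was a whole multiple of 1 step for 100% of values above 0 (tolerance 0.01 reads, largest deviation 4.35e-05), which gave the reads behind each value and library sizes inside the FPKM of 20974002 and 18533374 (Control and Bru of U251) and 18070193 and 17406238 (Control and Bru of U87). These sizes were 0.978 and 1.04 times the reads on genes in U251 Control and Bru, and 0.990 and 1.02 times in U87 Control and Bru. The FPKM are thus not scaled to the reads on genes. Scaling to those reads instead moved the members' median in U251 from -0.53 to -0.44. The floor of 3 reads is an FPKM of 0.143 to 0.172 for a gene of 1 kb. Reads carry no molecular identifiers, so intervals and floors cover counting error only.

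Log2 ratios were computed on FPKM + 0.1, which understates the difference of low genes, where a gene's mean FPKM reached 1. The text names the 10 genes and, from each other list, the genes beyond 2-fold in either line or else the 2 with the largest mean absolute log2 ratio. The members and lists were chosen with earlier results of these data known. Intervals came from SciPy 1.17.1 (exact, two-sided, 95%), and the scripts, run in Python 3.11.15 with NumPy 2.4.6 and pandas 2.3.3, were tested on simulated data. Results were recomputed under 9 other settings of pseudocount, filter, biotype and scaling, and under 1 added after the data were seen. Promoter windows are from RefSeq.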

Additional observations from a re-analysis of the deposited data

Results flagged for a closer look

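For 4 of the 10 genes, the Bru library was below Control in U251 and above it in U87, with both counting intervals away from 0, as they were for 1.95% of all 12949 genes. The share over all genes was not matched for read number, on which the width of an interval depends. The log2 ratios in U251 and U87 were -0.78 and 0.11 for CYR61, -0.44 and 1.50 for ANKRD1, -0.55 and 0.31 for AMOTL2, and -0.58 and 0.31 for LATS2. With 1 library per condition, the difference between the lines was not tested against the spread between replicates. The value of ANKRD1 in U87 rests on 12 and 39 reads. The directions of these 4 genes were the same with the other pseudocounts and scalings tried. A filter does not alter a gene's value, and LATS2 was not tested at a mean FPKM of at least 5.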

How the results depend on the processing

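Each ratio of Bru to Control pairs the 2 libraries of a line. With 1 library per condition there were no replicate pairs, so no paired test was run. The number of all genes beyond 2-fold, 1140 in U251 and 432 in U87, depended on the treatment of low values and on biotype: it was 616 and 190 with a pseudocount of 1, 4963 and 4335 with no filter, 3727 and 2801 at a mean FPKM of at least 0.1, 473 and 83 at a mean of at least 5, and 700 and 96 over protein-coding genes alone. With a pseudocount of 1, ANKRD1 was no longer beyond 2-fold in U87, so the members beyond 2-fold there went from 1 to 0. At a mean FPKM of at least 5, the other pathway genes beyond 2-fold in U251 went from 1 to 0, since VGLL2 was no longer tested. Scaling to the 75th percentile moved the members' median in U87 from 0.02 to 0.18 and turned CTGF there from -0.13 to 0.022, and at a mean FPKM of at least 5 that median was -0.059. Scaling to the 75th percentile also moved the members beyond 2-fold in U251 from 2 to 3 (AJUBA at 1.001), as did the total of recovered reads. Scaling to the total of recovered reads, added after the data were seen, moved the members' median in U251 from -0.53 to -0.44. Of the other values for single genes across settings, 221 moved by less than their counting error and 18 by more, and TEAD1 and AJUBA in U87 and the difference between lines of YAP1, whose intervals include 0, changed sign with the 75th percentile. CTGF and WWTR1 stayed below -1 in U251 under every alternative run, at -1.46 to -1.37 and -1.15 to -1.06. Depth limits ANKRD1 and VGLL2 in U87, which rest on 39 reads or fewer per library.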
